A study of Homo sapiens with 8 samples.

Results

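The genes described here are 10 members of the S100 family of calcium-binding proteins, S100A2, S100A3, S100A4, S100A6, S100A10, S100A11, S100A13, S100A14, S100A16 and S100P, 10 of 22554 features in the deposited tables. They were found by gene name, and all 10 had a row. The 10 were picked from the family with results of these data known, so their levels and their differences between the groups are given as a description and support nothing. They are not simply the most abundant members, since S100P is nearly silent here while S100A1 and S100A5, which were not picked, are detected in every sample.

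The cells were SKOV3, an established human ovarian cancer line. Low-density lipoprotein (LDL), the main cholesterol carrier of blood, was added at 50 µg/mL for 48 h to 4 samples (LDL 1 to 4), and 4 control samples (control 1 to 4) grew in ordinary medium; the line was kept in McCoy's 5A medium with fetal bovine serum. The labels name no vehicle for the controls. Nothing in them tells separate cultures from repeat samples of 1 culture, and the p-values cover the spread among these 8 libraries alone, part or all of which may be technical. All samples come from 1 line.

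S100 proteins are small calcium-binding proteins that work mostly as dimers. Each subunit carries a pair of EF-hand loops, and in most members calcium opens a surface that then docks onto annexins, cytoskeletal proteins or enzymes. Some members are also released from cells and act on receptors such as RAGE, and several are followed in carcinoma because of links to motility and invasion.

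Total counts ran from 34682501 to 36780334 in the LDL samples and from 37189698 to 44883561 in the control samples, with all LDL libraries the shallower ones. Of 10 markers of an epithelial ovarian line, 9 reached 1 CPM (the count scaled to a common library size) in some sample, and their summed level ran from 6163 to 6662 CPM in the LDL samples and from 6041 to 6506 CPM in the control samples. Of 11 immune cell markers 1 reached 1 CPM, and the defining gene PTPRC was at 0 in all 8 libraries. The marker that reached it was CD68, at 50.5 CPM with LDL and 44.4 CPM in controls (edgeR adjusted p = 0.849). The immune sum ran from 49.7 to 53.8 CPM in LDL samples and from 39.4 to 50.5 CPM in control samples. All 6 fibroblast markers reached 1 CPM, with sums of 172 to 444 CPM in LDL samples and 386 to 405 CPM in control samples. Summed levels stayed at or under 5.01 CPM for 5 endothelial markers and 2.30 CPM for 7 melanocyte and glial markers. LDL sample 4 stood apart from the rest on the first principal component (46.1, where LDL samples 1 to 3 had -17.4 to 0.787 and controls -10.7 to 1.86). In bulk RNA, fewer cells of a type and less RNA per cell cannot be told apart.

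Of the 10 genes, 9 lie together on chromosome 1 and are read from the minus strand of GRCh38 (GENCODE release 29). They form a pair, S100A10 (151982915 to 151994390) and S100A11 (152032506 to 152047907), and, further along, a run of S100A6 (153534599 to 153536244), S100A4 (153543613 to 153550136), S100A3 (153547329 to 153549372), S100A2 (153561108 to 153567890), S100A16 (153606886 to 153613145), S100A14 (153614255 to 153616986) and S100A13 (153618787 to 153631360). S100P lies alone on the plus strand of chromosome 4 (6693069 to 6697170). S100A3 falls wholly within the annotated span of S100A4 on the same strand, and S100A13 shares 3435 bases with S100A1 on the opposite strand. S100A13 also shares 5029 bases with an annotated processed transcript on its own strand. With annotated antisense genes S100A11 shares 10269 bases and S100A6 517 bases. How reads in shared stretches were assigned is not given in the sources used here, so counts of these overlapping genes are uncertain to that extent.

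To show what lies just before the start sites, the 250 bases upstream of the annotated RefSeq start (GRCh38.p14, minus strand, printed 5′ to 3′) are given for the most abundant member, S100A6, for the member with the smallest p in the comparison, S100A10, and for S100A4 and S100A13, a pair whose values moved closely together across the 8 samples. RefSeq lists 3 starts for S100A13, and the one printed is the one with a TATA box match. Each printed window lies within the GENCODE span of its gene given above, which reaches further upstream than the RefSeq start used. Capitals mark letters that match one of 6 searched motifs on either strand.
S100A6 (chr1:153535992-153536241): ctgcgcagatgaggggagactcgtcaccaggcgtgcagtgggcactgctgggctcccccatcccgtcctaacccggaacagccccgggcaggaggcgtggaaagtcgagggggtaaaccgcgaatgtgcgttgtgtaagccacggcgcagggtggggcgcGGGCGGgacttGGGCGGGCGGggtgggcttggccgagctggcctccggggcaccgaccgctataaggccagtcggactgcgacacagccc
S100A10 (chr1:151993860-151994109): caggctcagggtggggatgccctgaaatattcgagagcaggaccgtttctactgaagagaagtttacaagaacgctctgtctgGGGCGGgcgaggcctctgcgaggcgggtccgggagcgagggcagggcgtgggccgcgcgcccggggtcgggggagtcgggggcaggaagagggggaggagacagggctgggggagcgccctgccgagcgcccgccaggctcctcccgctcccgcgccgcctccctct
S100A4 (chr1:153545807-153546056): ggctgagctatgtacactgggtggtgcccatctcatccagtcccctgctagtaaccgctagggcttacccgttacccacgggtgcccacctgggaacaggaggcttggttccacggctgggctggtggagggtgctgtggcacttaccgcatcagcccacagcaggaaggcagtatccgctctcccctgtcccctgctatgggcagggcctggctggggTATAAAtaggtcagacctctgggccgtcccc
S100A13 (chr1:153627506-153627755): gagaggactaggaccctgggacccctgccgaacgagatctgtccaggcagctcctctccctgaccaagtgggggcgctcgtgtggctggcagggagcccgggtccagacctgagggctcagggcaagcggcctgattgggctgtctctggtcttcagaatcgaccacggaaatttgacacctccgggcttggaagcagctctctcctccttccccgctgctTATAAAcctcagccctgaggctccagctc
The capitals in S100A4 and S100A13 are the TATA box letters TATAAA, beginning 31 and 29 bases before the start. Those in S100A6 and S100A10 are the GC box letters GGGCGG of SP1-type factors, with 3 matches in S100A6, of which 2 overlap each other. Of the S100A13 starts not printed, 1 has a GC box match and the other no match. The TATA box that S100A13 shares with S100A4 here thus follows from the choice of start. Which start is used in these cells was not tested.

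All 10 genes matched the RefSeq promoter table, with 14 upstream windows between them. TATAAA was found in 3 of the 14 windows (S100A4, S100A13 and S100P), or 21.4%, against 10.7% of all 35116 windows. GGGCGG was found in 6 of the 14 windows (1 each of S100A3, S100A6, S100A10, S100A11, S100A13 and S100A16), or 42.9%, against 42.6% of all windows. The AP-1 letters TGANTCA were found in 2 of the 14 windows (S100A2 and S100A3), or 14.3%, against 6.57% of all windows. The E box CACGTG (6.34% of all windows), the forkhead core TGTTTAC (2.98%) and the sterol regulatory element of the LDL receptor gene (0.0342%) were not among the letters of any of the 14 windows. A match or its absence describes these letters only.

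Levels per gene length were compared with the authors' FPKM (fragments scaled to gene length in kilobases and to library size), which allow genes to be set side by side. S100A6, or calcyclin, was the most abundant member, at 2526 ± 266 FPKM in the LDL samples and 2198 ± 69.4 FPKM in the control samples (SD, n = 4 each here and below). S100A4, which binds the heavy chain of non-muscle myosin and is known from studies of metastasis, followed at 897 ± 186 FPKM with LDL and 762 ± 29.2 FPKM in controls. S100A11, an annexin-binding member, stood at 463 ± 44.8 FPKM with LDL and 422 ± 18.2 FPKM in controls. S100A16, a broadly expressed member, stood at 359 ± 45.1 FPKM with LDL and 309.8 ± 10.9 FPKM in controls.

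A middle group held 3 genes. S100A10, the p11 subunit that pairs with annexin A2 and does not need calcium to do so, had 279.9 ± 33.4 FPKM with LDL and 237 ± 1.65 FPKM in controls. S100A13, which takes part in the release of FGF1 and interleukin 1 alpha, had 208 ± 34.6 FPKM with LDL and 183 ± 3.66 FPKM in controls. S100A2, a mainly nuclear member described as lost in several carcinomas, had 194 ± 38.2 FPKM with LDL and 169 ± 4.65 FPKM in controls. S100A3, a cysteine-rich member known from the hair cuticle, followed at 40.9 ± 7.49 FPKM with LDL and 38.2 ± 3.17 FPKM in controls. S100A14, which has a degenerate EF-hand, had 0.921 ± 0.424 FPKM with LDL and 0.582 ± 0.119 FPKM in controls.

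S100P, first described in placenta and known as a ligand of ezrin and RAGE, was at the edge of detection. Its estimated counts were 5, 8, 0 and 11 in LDL samples 1 to 4 and 0, 5, 0 and 6 in control samples 1 to 4, that is 24 counts over the LDL libraries and 11 over the control libraries. With a count of 0, a level of up to 3 counts is possible. That is 0.0865 CPM in LDL sample 3, 0.0727 CPM in control sample 1 and 0.0775 CPM in control sample 3. It fell below the filter on low counts and was not tested with the others.

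**Figure D1:**
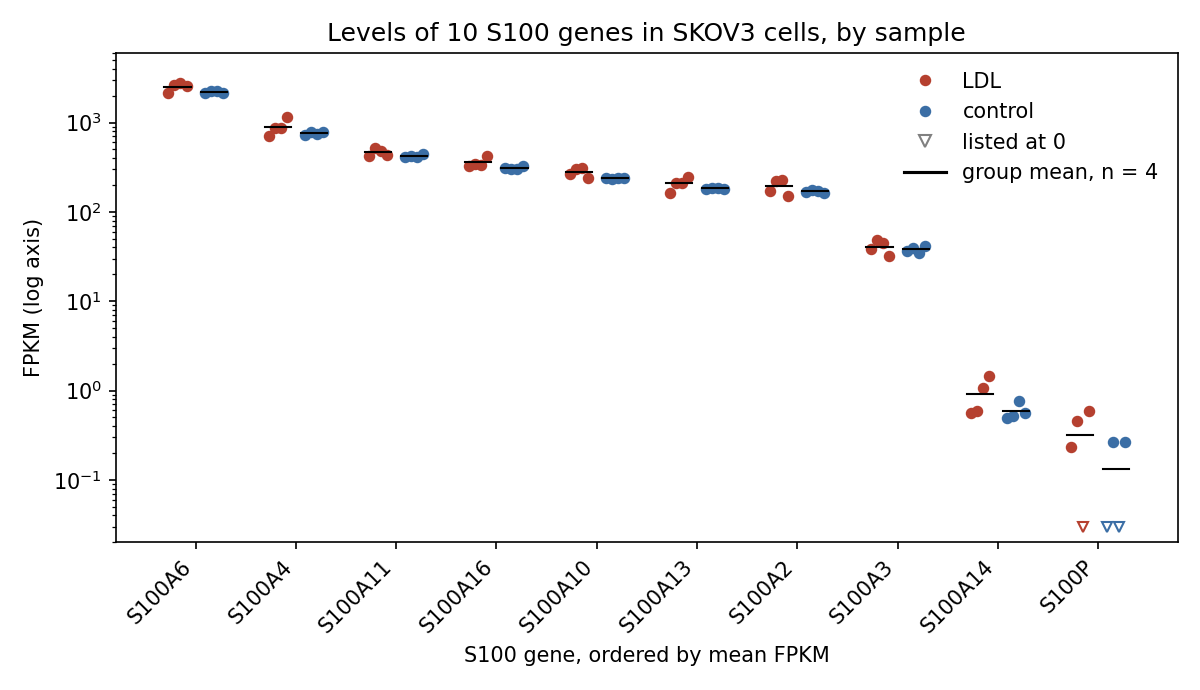
FPKM (log axis) of the 10 S100 genes, 1 point per sample, with LDL left of control for each gene, a line at each group mean (n = 4) and open triangles for values listed at 0. The levels span from a mean of 2526 FPKM with LDL and 2198 FPKM in controls for S100A6 down to 0.319 FPKM with LDL and 0.132 FPKM in controls for S100P.

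The order of levels was read from the ranges over samples. In the 4 control samples the ranges of neighbouring members did not overlap at any of the 9 steps of the order. In the 4 LDL samples they overlapped at 4 steps, between S100A11 and S100A16, S100A10 and S100A13, S100A13 and S100A2, and S100A14 and S100P. Within samples, S100A11 still lay above S100A16, and S100A14 above S100P, in 4 of 4 LDL samples. S100A10 lay above S100A13 in 3 of 4 LDL samples and S100A13 above S100A2 in 1 of 4, each against 4 of 4 control samples. When CPM was divided by the longest annotated transcript in place of FPKM, S100A2 moved to rank 5, S100A10 to 6 and S100A13 to 7 of the 10, while the other 7 kept their ranks.

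Together the 10 genes took 0.248%, 0.304%, 0.308% and 0.313% of all counts in LDL samples 1 to 4 and 0.246%, 0.261%, 0.259% and 0.258% in control samples 1 to 4. LDL samples 2, 3 and 4 lay above all controls, and LDL sample 1 lay among them.

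Whether LDL changed these genes was compared with the quasi-likelihood test of edgeR over all features. Of the 10 members, 9 passed the filter and none of the 9 was past an adjusted p of 0.05, where 0.0648% of 15432 tested features were (4 higher, 0.0259%, and 6 lower, 0.0389%). DESeq2, which called 0.32% of the features it tested, and limma voom also called none of the members. At an unadjusted p under 0.05 edgeR had 3 of 9 members (S100A6, S100A10 and S100A16), all higher with LDL, against 5.59% of all features. All 9 log2 fold changes were above 0, from 0.09 to 0.60 with a median of 0.21. Over all 15432 tested features 8064 were above 0, and the median was 0.006. The groups overlapped in CPM in all 9, while 3.45% of all features had groups apart (1.74% with all LDL samples above and 1.71% with all below). Since the members were picked with this comparison known, nothing is read from these shares.

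S100A10 had the smallest p of the members. It had 185, 213, 222 and 168 CPM in LDL samples 1 to 4, against 165, 166, 170.2 and 169 CPM in control samples 1 to 4. The controls lay within a narrow band, LDL samples 1 to 3 lay above it and LDL sample 4 lay inside it. The log2 fold change was 0.23 (SE 0.0723, 95% interval 0.08 to 0.39, edgeR adjusted p = 0.68). Without LDL sample 4 it was 0.30 with an edgeR adjusted p of 0.0365, in a fit that called 0.166% of all features.

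S100A11 had 244, 306, 288 and 253 CPM in LDL samples 1 to 4, against 242, 248, 243 and 265 CPM in control samples 1 to 4. LDL samples 2 and 3 lay above all controls and the other 2 LDL samples lay among them (log2 fold change 0.13, 95% interval -0.01 to 0.27, edgeR adjusted p = 0.879). Without LDL sample 2 it was 0.06.

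S100A6 had 988, 1245, 1297 and 1214 CPM in LDL samples 1 to 4, against 991, 1055, 1083 and 1021 CPM in control samples 1 to 4. LDL samples 2, 3 and 4 lay above all controls, and LDL sample 1 lay below them. The log2 fold change was 0.19 (SE 0.0702, 95% interval 0.04 to 0.34, edgeR adjusted p = 0.822). Without LDL sample 1 it was 0.27 with an edgeR adjusted p of 0.0047, in a fit that called 0.954% of all features.

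S100A4 had 389.6, 503, 496 and 656 CPM in LDL samples 1 to 4, against 407, 447, 436 and 451 CPM in control samples 1 to 4. LDL sample 4 was the highest of the 8 and LDL sample 1 the lowest. The log2 fold change of 0.23 had a 95% interval of -0.12 to 0.59 (SE 0.149, edgeR adjusted p = 0.884), and it was 0.09 without LDL sample 4.

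S100A16 had 382, 415, 407 and 509.7 CPM in LDL samples 1 to 4, against 367, 360.1, 368 and 391 CPM in control samples 1 to 4. LDL sample 1 lay below control sample 4 in CPM, so the groups overlapped. In the authors' FPKM the LDL samples (327.9 to 426) lay just above the control samples (301 to 325.5). How many of all features had groups apart in FPKM was not counted. The log2 fold change was 0.21 (SE 0.0747, 95% interval 0.04 to 0.37, edgeR adjusted p = 0.822), and 0.11 without LDL sample 4.

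S100A13 had 98.4, 125, 128 and 149.8 CPM in LDL samples 1 to 4, against 108, 111, 114 and 108 CPM in control samples 1 to 4. As in S100A4, LDL sample 1 was the lowest and LDL sample 4 the highest of all 8. The log2 fold change was 0.18 (SE 0.103, 95% interval -0.05 to 0.41, edgeR adjusted p = 0.884). It was 0.28 without LDL sample 1, with an edgeR adjusted p of 0.0305, in a fit that called 0.954% of all features. Without LDL sample 4 it was 0.09.

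S100A2 had 155, 217, 217 and 145 CPM in LDL samples 1 to 4, against 151, 168, 159 and 157 CPM in control samples 1 to 4. LDL samples 2 and 3 lay well above the controls and LDL sample 4 below all of them (log2 fold change 0.21, 95% interval -0.14 to 0.56, edgeR adjusted p = 0.905). It was 0.12 without LDL sample 2 and 0.12 without LDL sample 3.

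S100A3 followed the same course, with 28.4, 37.4, 34.5 and 24.4 CPM in LDL samples 1 to 4, against 27.8, 30.1, 27.3 and 31.8 CPM in control samples 1 to 4. Its log2 fold change of 0.09 (95% interval -0.16 to 0.34, edgeR adjusted p = 0.95) was -0.01 without LDL sample 2, 0.04 without LDL sample 3 and 0.19 without LDL sample 4.

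S100A14 had the lowest level of the tested members, with counts of 26, 26, 41 and 61 in LDL samples 1 to 4 and 26, 25, 37 and 29 in control samples 1 to 4. Its log2 fold change of 0.60 was the largest and the least precise (SE 0.362, 95% interval -0.17 to 1.36, edgeR adjusted p = 0.884), and without LDL sample 4 it was 0.28. In CPM the groups overlapped, with 0.703 to 1.75 in LDL samples and 0.630 to 0.956 in control samples.

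**Figure D2:**
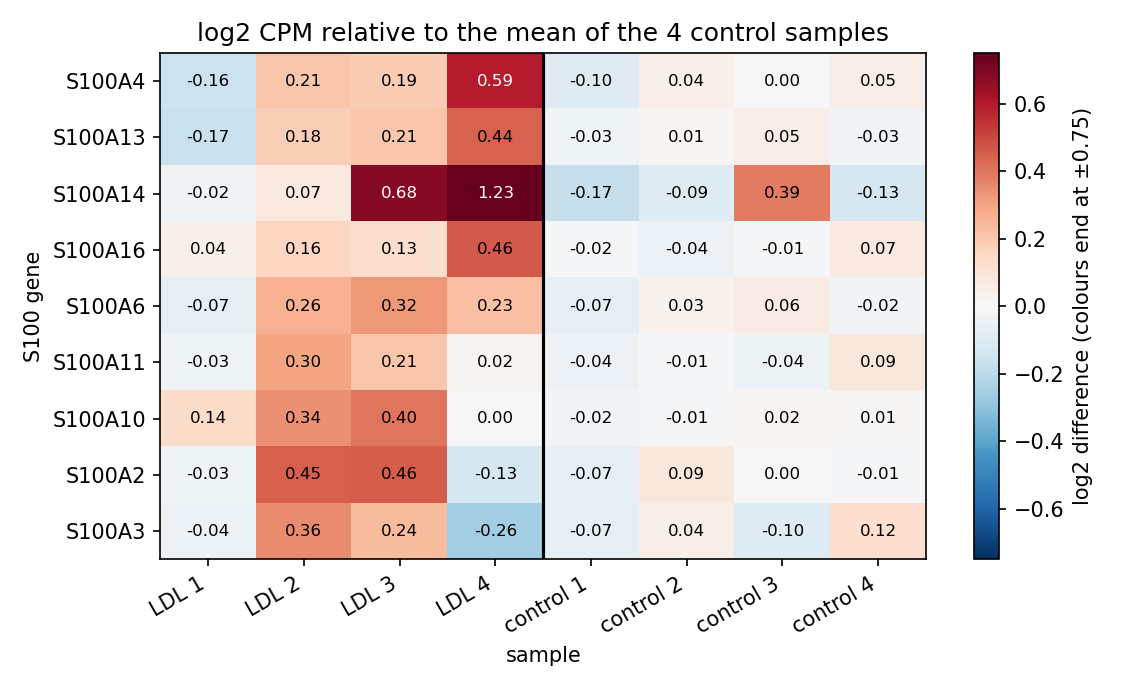
Log2 CPM of the 9 tested S100 genes in each sample, LDL columns left of control columns, relative to the mean of the 4 control samples. LDL samples 2 and 3 are above 0 in all 9 genes, LDL sample 1 in 2 genes, and LDL sample 4 ranges from -0.26 for S100A3 to 1.23 for S100A14.

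The 4 LDL samples did not behave alike. Relative to the mean of the controls, LDL samples 2 and 3 were higher in 9 of 9 members, with medians of 0.26 and 0.24 on the log2 CPM scale. LDL sample 1 was higher in 2 of 9 (median -0.03). LDL sample 4 was higher in 7 of 9 (median 0.23), with S100A10 at 0.0005 and S100A11 at 0.02 barely so. The members split around LDL samples 2 and 3. In S100A4, S100A13, S100A14 and S100A16 LDL sample 4 lay above both, and in S100A2, S100A3, S100A6, S100A10 and S100A11 below both. S100A6 was at 0.23 there, against 0.26 in LDL sample 2. How all tested genes split in this way was not counted, so nothing particular to the family is read from it. LDL sample 4 also stood apart over all tested genes on the first principal component. In 8 of the 8 members with at least 1 CPM in controls the coefficient of variation was larger among LDL samples than among controls, which was also so for 65.8% of 13600 genes at that level. For S100A10 it was 12.7% among LDL samples and 1.33% among controls.

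The split can also be given as ratios within a library, which library scaling does not touch. The 4 pairs below were chosen after their values were seen, each setting a member that lay higher in LDL sample 4 than in LDL samples 2 and 3 over one that lay lower, so they describe the split and add no evidence for it. The log2 ratio of S100A4 to S100A2 was 1.33, 1.21, 1.19 and 2.18 in LDL samples 1 to 4, against 1.44, 1.41, 1.46 and 1.52 in control samples 1 to 4. LDL samples 1 to 3 lay below every control and LDL sample 4 above every control. The log2 ratio of S100A13 to S100A10 was -0.91, -0.76, -0.80 and -0.16 in LDL samples 1 to 4, against -0.62, -0.58, -0.58 and -0.64 in control samples 1 to 4. Here too the first 3 LDL samples lay below the controls and the fourth above them. That order did not hold in the other 2 pairs. The log2 ratio of S100A16 to S100A11 was 0.64, 0.44, 0.50 and 1.01 in LDL samples 1 to 4, against 0.60, 0.54, 0.60 and 0.56 in control samples 1 to 4, with LDL sample 1 also above every control. The log2 ratio of S100A4 to S100A6 was -1.34, -1.31, -1.39 and -0.89 in LDL samples 1 to 4, against -1.28, -1.24, -1.31 and -1.18 in control samples 1 to 4, with LDL sample 2 just above control sample 3. LDL sample 4 was the highest of the 8 in each of the 4 ratios. Of the other lists, the summed level of 6 fibroblast markers, mostly COL1A1, moved with LDL sample 4, at 172 CPM, against 404 to 444 CPM in the other LDL samples and 386 to 405 CPM in controls, and its part in the split was not tested.

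**Figure D3:**
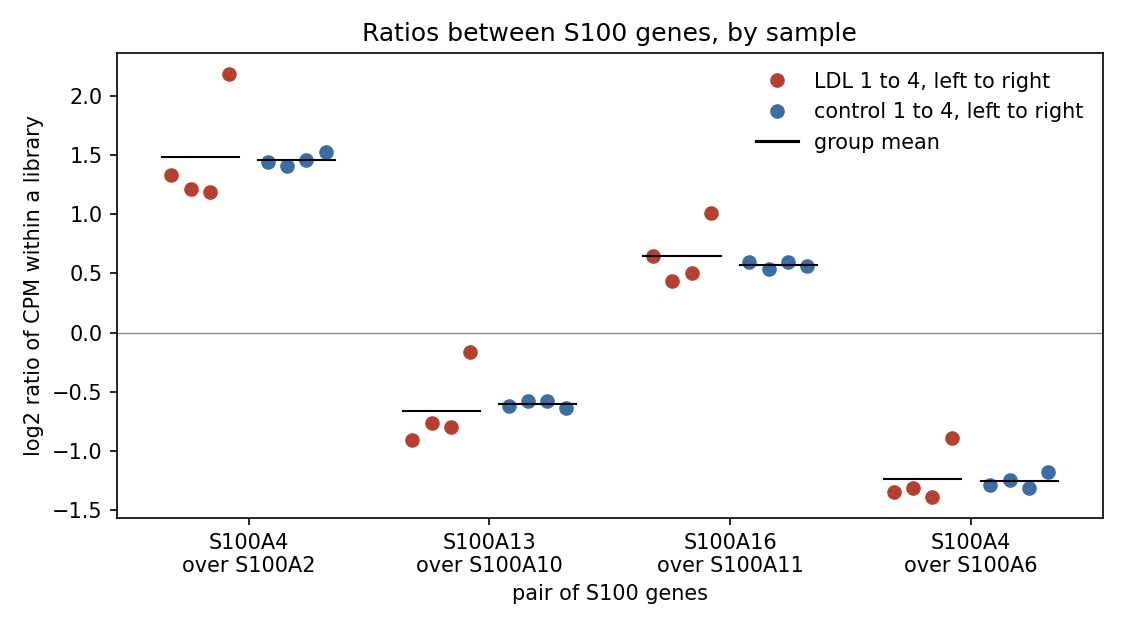
Log2 ratios of CPM between pairs of S100 genes within each library, LDL points left of control points, with lines at the group means. In the ratio of S100A4 to S100A2, LDL sample 4 stands at 2.18 and the other 7 samples between 1.19 and 1.52.

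Levels by transcript length also differed between libraries. Most of these mRNAs are short, since the longest annotated transcript is at most 1000 bases in 5 of the 9 tested members, above 1000 and up to 2000 bases in 3, and 2184 bases in S100A13. Over the 354 tested genes of at most 1000 bases, the median log2 CPM relative to the control mean was -0.13, 0.14, 0.14 and 0.07 in LDL samples 1 to 4, against -0.01, -0.02, 0.02 and 0.02 in control samples 1 to 4. Over the 6078 genes above 4000 bases it was 0.04, -0.04, -0.03 and -0.03 in LDL samples 1 to 4. Over the 5256 genes of the class of S100A13, above 2000 and up to 4000 bases, it was -0.01, 0.03, 0.02 and 0.02 in LDL samples 1 to 4, where S100A13 itself stood at -0.17, 0.18, 0.21 and 0.44. The part of length in the members' values was not tested beyond the correction that follows. With a smooth correction for length and GC content in each library, the median log2 fold change of the 9 members was 0.15, against 0.21 without it, and none was called by edgeR (adjusted p from 0.687 to 0.993). S100A6 then stood at 0.11, S100A11 at 0.06, S100A3 at 0.01 and S100A4 at 0.15, each over 1.5 times lower than without the correction. S100A2 stood at 0.14, S100A16 at 0.15 and S100A10 at 0.17. S100A13 at 0.16 and S100A14 at 0.53 moved least in proportion.

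**Figure D4:**
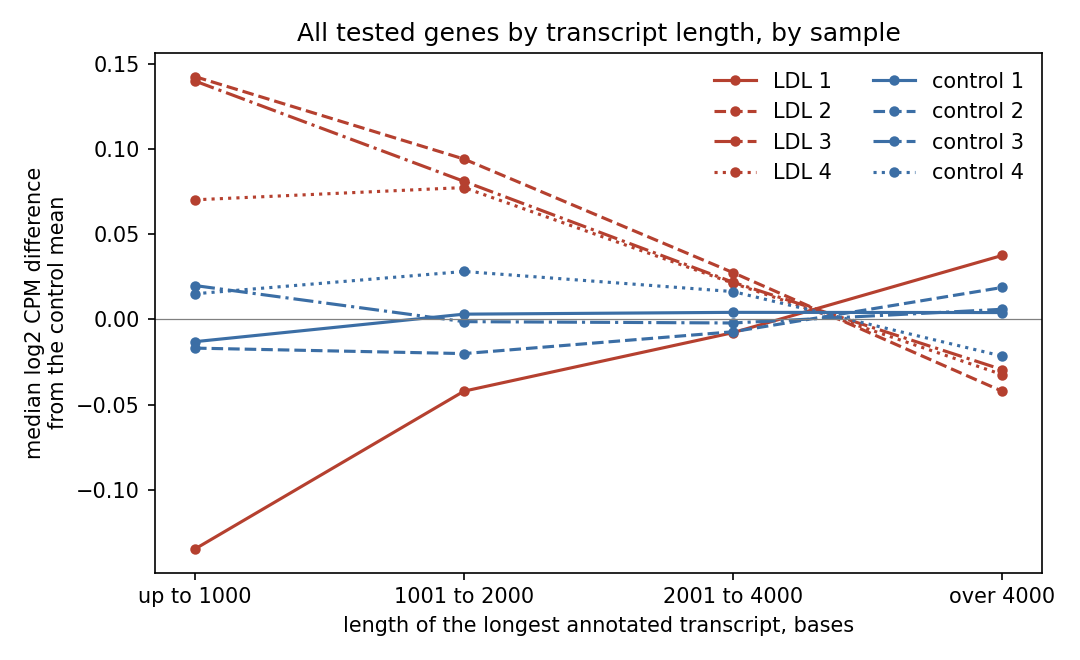
Median log2 CPM difference from the control mean over all tested genes in 4 classes of transcript length, 1 line per sample. In the class of at most 1000 bases LDL sample 1 lies at -0.13, LDL samples 2 and 3 at 0.14 and the control samples between -0.02 and 0.02.

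Genes with the most similar course were sought among 13636 others with at least 1 CPM, by the root mean square difference of centred log2 CPM over the 8 samples. Nearest to S100A6 were TIMM10, a chaperone of mitochondrial protein import (0.026), the prefoldin subunit gene PFDN6 (0.0433) and OSTF1 (0.044), where the median gene was at 0.186. Nearest to S100A4 was another member, S100A13 (0.0641), followed by MSTRG.22507, an assembled feature without a gene name (0.0665), and BAIAP2L2, which encodes a membrane-bending I-BAR protein (0.0761), where the median gene was at 0.247.

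Apart from S100A1 and S100A5, the rest of the family was nearly silent. S100A7, S100A7A, S100A8, S100A12 and S100G had a count of 0 in all 8 libraries. S100A9, S100B and S100Z had 4, 5 and 2 counts over the LDL libraries and 0, 0 and 7 over the control libraries. S100A1, the muscle member, had 3.59 ± 0.831 CPM with LDL and 3.28 ± 0.368 CPM in controls (log2 fold change 0.13, edgeR adjusted p = 0.954, n = 4 each). Left out 1 at a time, the samples gave a log2 fold change of 0.27 without LDL sample 1, 0.08 without LDL sample 2, 0.0083 without LDL sample 4 and 0.06 without control sample 1. It overlaps S100A13 on the other strand, so with unknown strand settings part of its counts could belong to that gene. S100A5 stood at 3.31 ± 0.614 CPM with LDL and 3.57 ± 0.693 CPM in controls (edgeR adjusted p = 0.96, n = 4 each).

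The surroundings of the 9 genes on chromosome 1 were examined next. Between S100A11 and S100A6 lies the part of the epidermal differentiation complex with the filaggrin-type genes, which carry an S100 domain fused to long repeats. Of 50 protein-coding genes there with a row, 43 had a count of 0 in all libraries and 0 reached a mean of 1 FPKM. The 50 take in S100A7, S100A7A, S100A8, S100A9 and S100A12, already given above. TCHH, the trichohyalin gene, was the only one tested (0.811 ± 0.336 CPM with LDL and 0.876 ± 0.225 CPM in controls, edgeR adjusted p = 0.981, n = 4 each). On the other side, in the 500000 bases beyond S100A1, all 14 protein-coding genes were tested and 12 reached a mean of 1 FPKM. Of these 14, edgeR called 0, with 1 at an unadjusted p under 0.05 (5.59% of all features). Their log2 fold changes ran from -0.16 to 0.17 with a median of -0.03, and 4 of 14 were above 0.

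Partner genes were taken from lists of known S100 biology, of which 1 annexin, 1 other intracellular target, 4 other EF-hand genes and 3 filaggrin-type genes had a count of 0 in all 8 libraries. Annexins, the membrane-binding partners of S100A10, S100A11 and S100A6, had 11 of 13 members tested, with 8 log2 fold changes above 0, a median of 0.05 and 2 members at an unadjusted p under 0.05 in edgeR (5.59% of all features), and none passed over all genes by edgeR, DESeq2 or limma voom. ANXA5 had the smallest p, at 505.5 ± 10.8 CPM with LDL and 469 ± 18.1 CPM in controls, with all LDL samples above all controls (log2 fold change 0.11, edgeR adjusted p = 0.849, n = 4 each). ANXA2, the partner of S100A10, was picked after its values were seen and stood at 1378 ± 71.7 CPM with LDL and 1333 ± 35.4 CPM in controls (log2 fold change 0.05, edgeR adjusted p = 0.932, n = 4 each). Its log2 fold change was 0.02 without LDL sample 2, 0.03 without control sample 2 and 0.08 without LDL sample 4. ANXA1, a partner of S100A11 (log2 fold change 0.16, edgeR adjusted p = 0.858) passed without LDL sample 1, at 0.22 with an edgeR adjusted p of 0.0456. The fit without that sample called 0.954% of all features.

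Of the S100 targets inside the cell other than annexins, 15 of 16 were tested, among them the myosin heavy chain gene MYH9 and the S100A6 partner CACYBP. Of these, 6 were above and 9 below 0, with a median of -0.006, and 0 passed at an unadjusted p of 0.05 or over all genes in edgeR. The smallest p was that of KCNK3, a potassium channel that S100A10 brings to the membrane, at 2.61 ± 1.49 CPM with LDL and 1.48 ± 0.508 CPM in controls (log2 fold change 0.82, edgeR adjusted p = 0.879, n = 4 each). Its LDL samples ran from 1.41 to 4.48 CPM and overlapped the controls at 0.848 to 2.09 CPM, and the log2 fold change was 0.43 when LDL sample 4 was left out.

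Receptors and release factors had 13 of 16 members tested, 7 above and 6 below 0, with a median of 0.06, 1 at an unadjusted p under 0.05 (5.59% of all features) and 0 past the threshold in edgeR. AGER, which encodes RAGE, was picked after its values were seen and stood at 3.46 ± 0.473 CPM with LDL and 3.46 ± 0.280 CPM in controls (edgeR adjusted p = 0.9998, n = 4 each). PLAT, the tissue plasminogen activator that S100A10 binds, had 58.4, 61.2, 62.9 and 88.7 CPM in LDL samples 1 to 4, against 54.6, 57.3, 55.9 and 56.9 CPM in control samples 1 to 4. All LDL samples lay above all controls, and LDL sample 4 far above the other LDL samples (log2 fold change 0.27, edgeR adjusted p = 0.878). It was 0.11 when LDL sample 4 was left out. In FPKM the groups overlapped, at 20.6 to 31.4 with LDL and 17.98 to 21.5 in controls.

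Other EF-hand genes had 26 of 32 members tested, 19 above and 7 below 0, with a median of 0.02, 3 at an unadjusted p under 0.05 (5.59% of all features) and 0 past the threshold in edgeR.

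**Figure D5:**
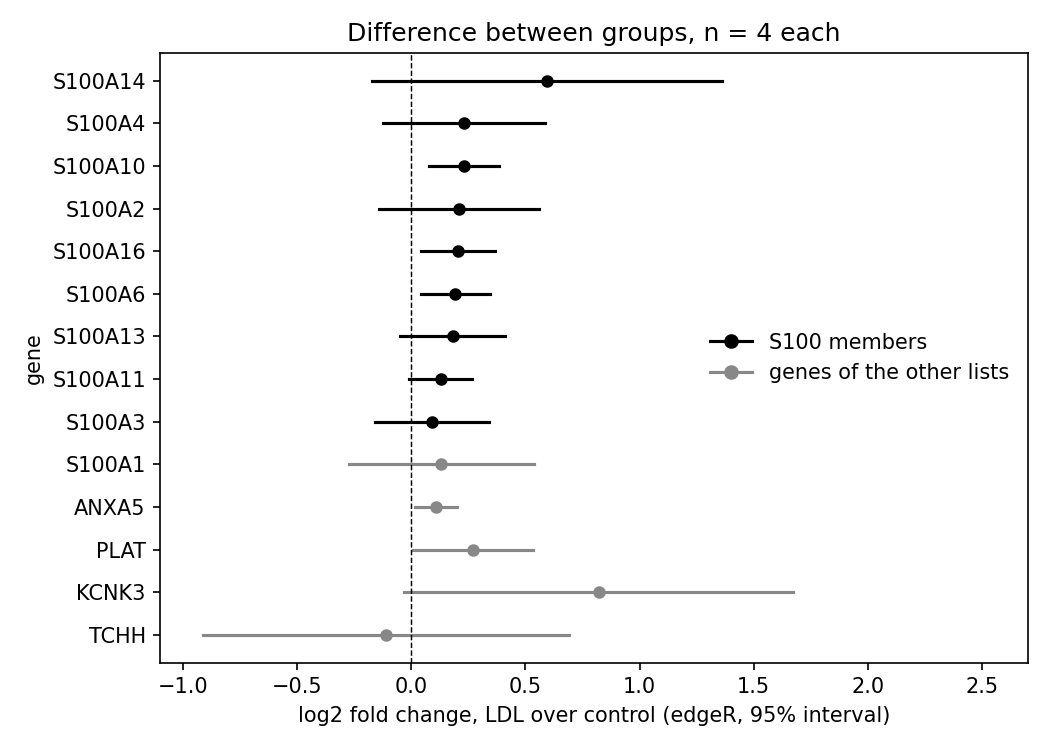
Log2 fold change, LDL over control, with its 95% interval from edgeR, n = 4 samples a group. Black marks the 9 tested S100 members, and grey marks S100A1, ANXA5, PLAT, KCNK3 and TCHH from other lists. The values of the 9 S100 genes lie between 0.09 and 0.60, and the interval of S100A14 reaches from -0.17 to 1.36.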

How the data were processed

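Poly(A) RNA libraries of 8 SKOV3 samples, made with a strand-marking kit per the labels' protocols, were read from 2 tables. The deposited count table holds whole numbers and includes assembled features, and its values were handled as estimated counts. The deposited FPKM had been scaled to length and depth by the authors and served for levels and alternatives. HISAT2, featureCounts, DESeq2 1.26.0 and GRCh38 appear in the submitters' processing notes, without roles; neither the annotation nor the strand setting of counting is given in the sources used here. Groups and sample numbers came from titles.

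All features were fitted in edgeR 4.0.16 (R 4.3.3) with its quasi-likelihood test, TMM factors, robust dispersion and no term but group, on the 15432 features that filterByExpr kept at its defaults, with Benjamini-Hochberg adjustment over all of them at 0.05. CPM used TMM library sizes, and log2 CPM a prior count of 2. The members and lists were chosen with earlier results of these data known. The rule for other named genes took the called members of each list or, with none, the one of smallest p, plus the 3 genes nearest in course to S100A6 and S100A4. S100A5, ANXA1, ANXA2, AGER, MYH9, CACYBP, COL1A1, CD68 and PTPRC were added after their values were seen. The gene of 1 list is not reported here. Alternatives were other scalings and filters, DESeq2 1.42.0, limma 3.58.1 on counts (voom) and on log2 FPKM, the replicate number as a block and each sample left out. Length and GC offsets were added after seeing the data. Within groups, chi-square per degree of freedom between libraries was 6.67 to 27.5, so no library was a copy of another. It cannot tell separate cultures from repeat samples of 1 culture. The test was checked on simulated counts with known changes and no outlying sample. That check does not cover LDL samples as uneven as these. Limits for a count of 0 cover counting error only.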

Additional observations from a re-analysis of the deposited data

Results flagged for a closer look

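Of 32 groups of 4 samples checked for a sample far from the other 3, 2 were picked out, and chance gives about 1 in 20. In S100A14, control sample 3 stood at 0.956 CPM, above the other control samples at 0.630 to 0.667 CPM, with 37 counts in that sample and 25 to 29 in the others. In PLAT, LDL sample 4 stood at 88.7 CPM, above the other LDL samples at 58.4 to 62.9 CPM.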

How the results depend on the processing

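No S100 member passed the threshold in any of the 11 alternatives that keep all 8 samples, and the log2 fold change of all 9 tested members stayed above 0 in them. When 1 sample was left out, the number of members called ran from 0 to 2: S100A6 and S100A13 without LDL sample 1, where 0.954% of all features were called, and S100A10 without LDL sample 4, where 0.166% were. The number of listed partner genes called ran from 0 to 1 (ANXA1 without LDL sample 1). In the same fits the log2 fold change of S100A3 ran from -0.014 (without LDL sample 2) to 0.19, against 0.09 with all samples. That of TCHH ran from -0.34 to 0.13 (without LDL sample 4) and was 0.06 without control sample 2, against -0.11 with all samples.

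Over all features, 10 calls became 47 with DESeq2, 2 with the replicate number as a block, 5 with log2(FPKM + 0.1), 2 with log2(FPKM + 1) and no minimum, and 19 with length and GC offsets. With 1 sample left out the number ran from 2 to 149, the highest without LDL sample 1 and 26 without LDL sample 4. The causes were not tested. The labels do not say whether the replicate numbers pair the samples, and these values do not decide it. Same-numbered samples correlated between -0.10 and 0.06 in their deviations from group means. LDL samples 2 and 3 matched their own number best, and LDL samples 1 and 4 did not. The block changed no other call named here. S100A14 and S100P are limited by depth, at 25 to 61 and 0 to 11 counts per library.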
